A study of Mus musculus with 4 samples.

Results

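The genes described here are 7 enzymes of cholesterol synthesis that are targets of the transcription factor SREBP2: Acat2, Hmgcs1, Idi1, Fdps, Sqle, Cyp51 and Nsdhl. They were taken as every non-control probe whose RefSeq accession maps to 1 of these genes, which gave 8 of the 55681 probes of the array, 1 each for 6 genes and 2 for Nsdhl, each printed as 1 spot. All 8 were well above background on 4 of 4 arrays in both genotypes, so all 8 were among the 27513 probes tested. The values come from adult liver of Rap1-/- and wild-type mice, both on a C57BL6/129SV background (90% and 10%) and both labelled as 30 weeks old, with 3 biological replicates per genotype. The Rap1-/- mice lack the gene throughout the body, from a cross of Rap1 flox/flox mice to mice with Cre under the EIIa promoter. The labels give no sex, whereas the study's text describes females of a somewhat greater age. Each of 4 Agilent 2-colour arrays carried both genotypes: in pairs 1, 2 and 3, named after the replicate numbers of the labels, the Rap1-/- liver was labelled with Cy5 and the wild-type liver with Cy3, and on a dye-reversed array, numbered 1 in its label, the dyes were exchanged. All ratios below are log2 of Rap1-/- over wild-type, with the sign of the dye-reversed array turned, and that array was averaged with the array of pair 1 to give n = 3 pairs. That it holds the livers of pair 1 was read from its number alone.

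RAP1, encoded by Terf2ip, is a protein of telomeres that also binds elsewhere in the genome. SREBP2 is held in the endoplasmic reticulum together with SCAP and the INSIG proteins while sterols are plentiful. When sterols run low, SCAP escorts it to the Golgi, where the proteases MBTPS1 and MBTPS2 release the active fragment, which enters the nucleus and switches on the enzymes of cholesterol synthesis and genes of cholesterol uptake. The liver is a main site of cholesterol synthesis and uptake. In a liver in which SREBP2 activity alone changes, its targets are known to move together, which makes the direction of each enzyme a natural thing to compare.

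The dye-reversed array stood apart from the others, so its value is given for each member. Across the tested probes, pairs 1, 2 and 3 had mutual correlations of r = 0.64 to 0.85, while those of the dye-reversed array with them were r = -0.24, -0.29 and -0.27, which does not tell whose livers it holds. The Terf2ip probe A_52_P381806 had log2 ratios of -1.74, -1.92, -1.91 and -1.68 on pairs 1, 2 and 3 and the dye-reversed array, and was detected above background in 4 of 4 wild-type and 0 of 4 Rap1-/- channels (at least 3.33-fold lower, adjusted p = 0.00859), so the 4 orientations match the labels. The other Terf2ip probe, A_55_P2094079, was higher in Rap1-/- liver on all 4 arrays (log2 fold change 0.96, adjusted p = 0.033). The wild-type channels of the 3 Cy5 arrays of Rap1-/- liver correlated at r of at least 0.998. For the 279 probes printed repeatedly, the wild-type level of 1 spot spanned a median of 0.0988 log2 units over these arrays, less than the 0.166 to 0.176 spanned by 3 spots of a probe within an array, whereas in Rap1-/- liver it spanned 0.294 against 0.169 to 0.192. The wild-type values thus differed between arrays by less than repeated spots did. The labels give 3 biological replicates per genotype, no source used here says whether wild-type RNA was pooled, and the tests may leave out the spread between wild-type animals. All 10 hepatocyte markers examined were detected in both genotypes. In bulk liver, fewer cells of a type and less RNA per cell cannot be told apart.

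The calls for the 7 genes were not all in the same direction. The log2 fold changes of Hmgcs1, Idi1, Fdps, Sqle and Cyp51 were negative, that of Acat2 was positive, and the Nsdhl probes differed in sign. Of the 8 probes, 5 passed the limma test at an adjusted p under 0.15, against a background of 34.5% of all tested probes. The probes of Acat2 and the Nsdhl probe A_66_P137462 were higher in Rap1-/- liver (background 20.8% higher), and those of Idi1, Cyp51 and Sqle were lower (background 13.7% lower). Hmgcs1, Fdps and the other Nsdhl probe did not pass. Only the Acat2 probe had a log2 ratio of the same sign on all 4 arrays, which 21.5% of tested probes had. In a fit over all 4 arrays with a term for the dye, in which 6.7% of tested probes passed, Acat2 was the only member of the 8 probes to pass.

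**Figure D1:**
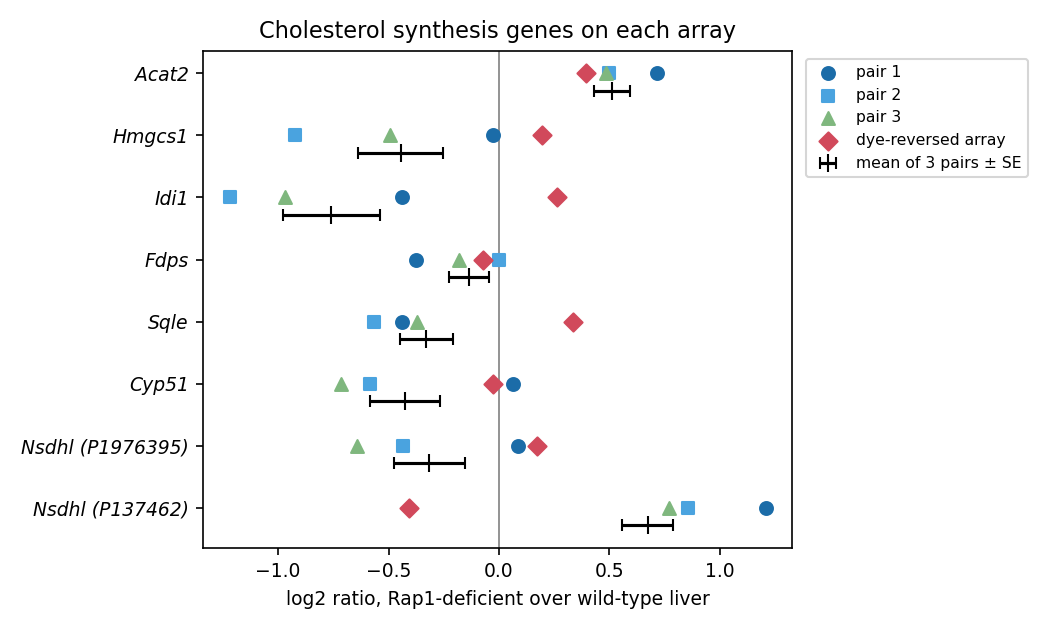
Log2 ratio of Rap1-/- over wild-type liver (x axis) for the 8 probes of the 7 genes (y axis), 1 symbol per array, with the mean of 3 pairs ± SE in black below each row. The Acat2 values lie between 0.39 and 0.71 on all 4 arrays, while for Hmgcs1, Idi1, Sqle and the Nsdhl probe A_66_P137462 the dye-reversed array lies on the other side of 0 from the rest.

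Promoters of 5 of the 7 genes are in the RefSeq promoter table (GRCm38.p6): Acat2, Hmgcs1, Idi1, Cyp51 and Nsdhl. The 250 bases before the annotated start were searched on both strands for TCACNCCAC (the core of a sterol regulatory element), CCAAT (the NF-Y box), GGGCGG (the Sp1 box) and TTAGGG (the telomere repeat unit, which the RAP1 partner TRF2 binds). Shown are Hmgcs1, the only one of the 5 with a TCACNCCAC match, Idi1, which had the largest decrease of the 7 genes, and Acat2, which had the same sign on every array; capitals mark the matches on either strand, and none overlaps another.

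Hmgcs1, chr13:119690101-119690350, plus strand: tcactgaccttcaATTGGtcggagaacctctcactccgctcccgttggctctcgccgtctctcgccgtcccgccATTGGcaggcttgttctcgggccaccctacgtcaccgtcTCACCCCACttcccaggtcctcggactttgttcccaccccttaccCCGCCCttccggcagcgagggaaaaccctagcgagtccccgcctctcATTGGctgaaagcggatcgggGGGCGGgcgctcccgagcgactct

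Idi1, chr13:8885356-8885605, plus strand: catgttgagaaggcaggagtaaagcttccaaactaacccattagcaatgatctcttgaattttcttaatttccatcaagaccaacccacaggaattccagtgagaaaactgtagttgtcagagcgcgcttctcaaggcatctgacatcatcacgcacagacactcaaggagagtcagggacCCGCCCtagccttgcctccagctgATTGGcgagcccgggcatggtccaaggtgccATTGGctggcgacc

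Acat2, chr17:12960726-12960975, minus strand: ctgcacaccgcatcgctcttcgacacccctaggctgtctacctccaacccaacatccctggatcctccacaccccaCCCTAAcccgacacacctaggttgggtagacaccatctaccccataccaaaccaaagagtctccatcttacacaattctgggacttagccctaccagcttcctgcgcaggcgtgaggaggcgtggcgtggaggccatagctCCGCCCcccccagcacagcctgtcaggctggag

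TCACNCCAC was found in 1 of the 5 promoters (Hmgcs1, 137 bases before the start), against 1.05% of 32851 promoters of this length. CCAAT was found in 4 of 5, all but Acat2, against 33.8% of promoters. GGGCGG was found in all 5, against 32.7%. TTAGGG was found in 1 of 5 (Acat2, 174 bases before the start, on the antisense strand), against 9.32%. In these windows Acat2 thus differed from the other 4 in lacking CCAAT and in holding TTAGGG. A match of letters is a description and not a bound site. The search was for a single TTAGGG unit, whereas the study cites earlier work in which RAP1 preferred a repeat of this unit.

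Acat2, the cytosolic acetoacetyl-CoA thiolase that joins acetyl-CoA units at the entry of the pathway (chr17:12943042-12960725, GRCm38.p6), was higher in Rap1-/- liver on every array. Its log2 ratios were 0.71, 0.50 and 0.49 on pairs 1, 2 and 3 and 0.39 on the dye-reversed array. Its log2 intensity was 12.66 ± 0.09 in wild-type and 13.17 ± 0.12 in Rap1-/- liver (SD, n = 3), and every Rap1-/- value lay above every wild-type value. The log2 fold change was 0.51 (SE 0.08, 1.43-fold, adjusted p = 0.0402), and with the dye term it was 0.48 (adjusted p = 0.0787). The adjusted p was 0.270 without pair 2 and 0.202 when the dye-reversed array counted as a further replicate.

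Hmgcs1, the cytosolic HMG-CoA synthase of the next step (chr13:119690351-119708260), did not pass. Its log2 ratios were -0.03, -0.92 and -0.49 on pairs 1, 2 and 3 and 0.19 on the dye-reversed array. The livers of pairs 2 and 3 were low and both arrays of pair 1 were near 0. The log2 intensity was 15.96 ± 0.11 in wild-type and 15.52 ± 0.40 in Rap1-/- liver (SD, n = 3), with a log2 fold change of -0.44 (SE 0.19, adjusted p = 0.171). Without pair 1 it was -0.71 (adjusted p = 0.0279), in a fit that holds only arrays with Rap1-/- in Cy5, and without the dye-reversed array it was -0.48 (adjusted p = 0.0796).

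Idi1, the isomerase that interconverts the isoprenoid building blocks (chr13:8885606-8892396), had the largest decrease of the 7 genes. Its log2 ratios were -0.44, -1.22 and -0.97 on pairs 1, 2 and 3, all below 0, and 0.26 on the dye-reversed array. Its log2 intensity was 14.93 ± 0.18 in wild-type and 14.17 ± 0.42 in Rap1-/- liver (SD, n = 3), a log2 fold change of -0.76 (SE 0.22, 0.591-fold, adjusted p = 0.0822). The mean of pair 1 over both dye orientations was -0.09, and the larger decreases were those of pairs 2 and 3, for which no exchange of dyes was analysed here. With the dye term the fold change was -0.31 (adjusted p = 0.375). The adjusted p was 0.402 without pair 2 and 0.240 without pair 3.

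Fdps, the farnesyl diphosphate synthase that builds the last intermediate shared by sterols and other isoprenoids (chr3:89093588-89101967), had the smallest difference. Its log2 ratios were -0.37, 0.00121 and -0.18 on pairs 1, 2 and 3 and -0.07 on the dye-reversed array. The levels of the 2 genotypes were within 0.00121 of each other on pair 2. The log2 fold change was -0.14 (SE 0.09, adjusted p = 0.336), which did not pass, and by median centring of each array it was 0.08.

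Sqle is the squalene epoxidase, which turns squalene into squalene epoxide (chr15:59315092-59331193). It was lower on the 3 arrays with Rap1-/- in Cy5 and higher on the dye-reversed array. Its log2 ratios were -0.44, -0.56 and -0.37 on pairs 1, 2 and 3 and 0.34 on the dye-reversed array. Its log2 intensity was 13.68 ± 0.14 in wild-type and 13.35 ± 0.14 in Rap1-/- liver (SD, n = 3), with a log2 fold change of -0.33 (SE 0.12, adjusted p = 0.125). The mean of pair 1 over both orientations was -0.05, and with the dye term the fold change was -0.06 (adjusted p = 0.737). The adjusted p was 0.528 without pair 2 and 0.329 without pair 3.

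Cyp51, the demethylase that takes a methyl group off lanosterol (chr5:4080674-4104697), followed Hmgcs1 in being low on pairs 2 and 3 alone. Its log2 ratios were 0.07, -0.58 and -0.71 on pairs 1, 2 and 3 and -0.03 on the dye-reversed array. Both arrays of pair 1 were close to 0. Its log2 intensity was 10.95 ± 0.06 in wild-type and 10.53 ± 0.33 in Rap1-/- liver (SD, n = 3), with a log2 fold change of -0.43 (SE 0.16, adjusted p = 0.128). The adjusted p was 0.490 without pair 2, 0.397 without pair 3 and 0.534 with the dye term.

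Nsdhl, a sterol dehydrogenase of the demethylation steps that follow (chrX:72918521-72958528), had 2 probes that differed in sign. Probe A_55_P1976395 had log2 ratios of 0.09, -0.43 and -0.64 on pairs 1, 2 and 3 and 0.17 on the dye-reversed array. As for Hmgcs1 and Cyp51, pairs 2 and 3 were low. The log2 fold change of this probe, -0.32 (SE 0.16, adjusted p = 0.225), did not pass. It passed without pair 1 (-0.54, adjusted p = 0.0287), without the dye-reversed array (-0.33, adjusted p = 0.141) and with the value table of the authors (-0.43, adjusted p = 0.136). Probe A_66_P137462 had log2 ratios of 1.21, 0.85 and 0.77 on pairs 1, 2 and 3 and -0.41 on the dye-reversed array. Its log2 fold change was 0.67 (SE 0.12, adjusted p = 0.0403), 0.27 with the dye term (adjusted p = 0.284), and it did not pass without pair 2 (adjusted p = 0.279). Replicate 1 and the dye-reversed array differed by 1.62 at this probe, a gap larger than at 97.5% of tested probes, and by -0.08 at the other. Of 3023 genes with several tested probes, 40.9% had probes of opposite sign, so no direction is given for Nsdhl.

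At each member probe the Rap1-/- channel varied more between arrays than the wild-type channel. On the arrays compared, Rap1-/- was always in Cy5 and wild-type always in Cy3, so genotype and dye cannot be told apart here. Whether wild-type RNA was pooled is also not known. Over the 3 arrays with Rap1-/- in Cy5, the Rap1-/- log2 intensity of Hmgcs1 spanned 0.79 and that of wild-type 0.11. For Idi1 these ranges were 0.79 and 0.01, and for Cyp51 they were 0.78 and 0.04. Each of these 3 Rap1-/- ranges was larger than at 93% of tested probes. Nsdhl probe A_55_P1976395 spanned 0.64 in Rap1-/- and 0.13 in wild-type liver. The other 4 probes varied less, with Rap1-/- ranges of 0.41 for Nsdhl probe A_66_P137462, 0.30 for Fdps, 0.27 for Acat2 and 0.20 for Sqle. Across all tested probes the median range was 0.271 in Rap1-/- and 0.12 in wild-type liver, so a wider Rap1-/- range was general to the arrays and the ranges of Hmgcs1, Idi1 and Cyp51 were in its upper tail.

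**Figure D2:**
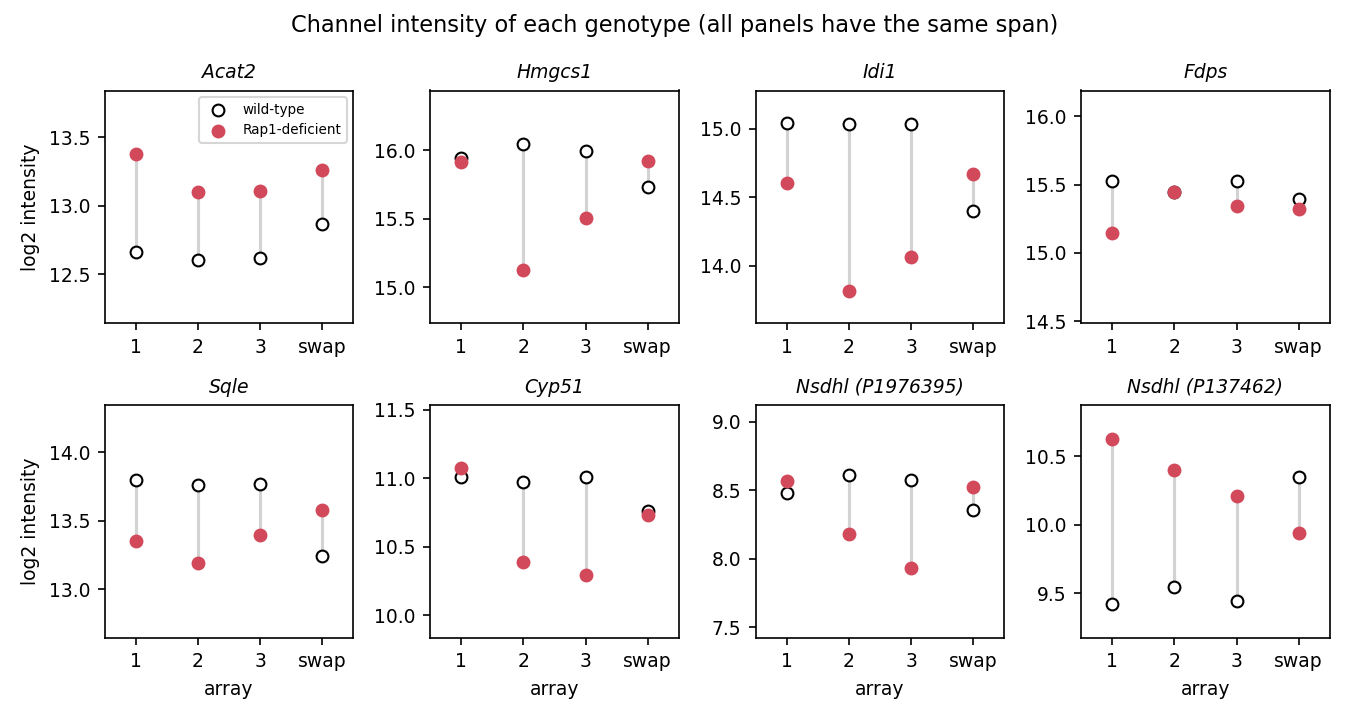
Log2 intensity after normalisation (y axis) in wild-type (open) and Rap1-/- liver (filled) on the arrays of pairs 1, 2 and 3 and the dye-reversed array (x axis), 1 panel per probe, all panels with the same span. On the first 3 arrays the wild-type points are nearly level (range 0.01 for Idi1), and the Rap1-/- points of Hmgcs1, Idi1 and Cyp51 drop on pairs 2 and 3 (ranges 0.79, 0.79 and 0.78).

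The wild-type level of several probes moved when its dye changed. For Idi1 it lay between 15.03 and 15.05 in Cy3 on the 3 arrays and at 14.40 in Cy5. For Sqle it lay between 13.76 and 13.80 in Cy3 and at 13.24 in Cy5, and for the Nsdhl probe A_66_P137462 between 9.42 and 9.54 in Cy3 and at 10.35 in Cy5. For Acat2 the shift was smaller, from 12.61 to 12.66 in Cy3 to 12.86 in Cy5. Of the 8 member probes, 4 had the 3 Cy5 arrays on one side of 0 and the dye-reversed array on the other, and 43.9% of all tested probes did. The fit with a dye term cannot separate the dye from the dye-reversed array, the only array of its orientation. The part of the dye in these results was not otherwise tested.

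**Figure D3:**
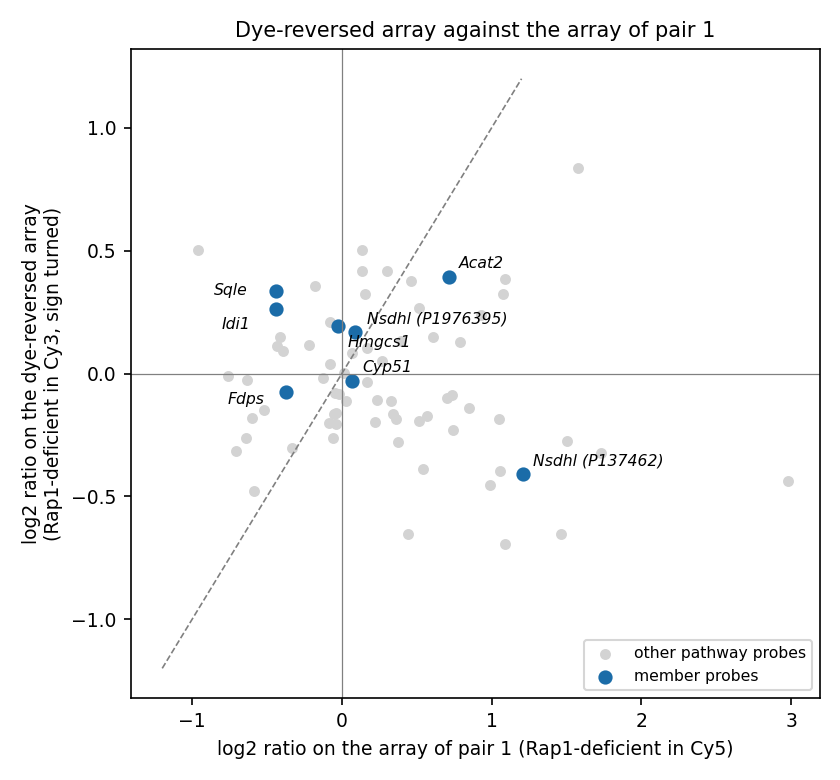
Log2 ratio on the dye-reversed array (y axis, sign turned) against that on the array of pair 1 (x axis) for the 8 member probes (blue, named) and the other tested probes of the sterol pathway list (grey); the dashed line marks equal values. Acat2 lies in the upper right at 0.71 and 0.39, and the Nsdhl probe A_66_P137462 at 1.21 and -0.41.

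Beyond the 7 genes, 48 of 51 listed genes of sterol synthesis, its control, uptake and efflux were measured, each by its probe of highest mean intensity. Of these, 13 were higher in Rap1-/- liver, 10 were lower and 25 did not pass, so that 47.9% passed against 34.1% of all named genes (18% higher and 16.1% lower). The median log2 fold change of the list was 0.06, and that of all named genes was 0.00489. Of the 23 that passed, 14 had the opposite sign on the dye-reversed array, and among all probes that passed 63.8% did. With the dye term 2 were higher and 4 lower (12.5% of the list, against 6.44% of all named genes). No listed gene passed without pair 2, when 7 of all tested probes passed and 14 listed genes had an unadjusted p under 0.05 in limma, and 7 listed genes passed without pair 3, when 9.94% of all tested probes did. With each gene taken as the mean over its probes, 26 passed, against 32.9% of all such means.

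Among the other synthesis enzymes, 5 of 15 measured were higher, 4 were lower and 6 did not pass. Lss, which closes squalene epoxide into lanosterol, had a log2 fold change of 0.78 with -0.45 on the dye-reversed array, and Fdft1, squalene synthase, 0.46 with -0.18. Msmo1, the sterol methyl oxidase next to Cyp51 and Nsdhl, had log2 ratios of -0.08, -0.88 and -0.76 on pairs 1, 2 and 3 and 0.21 on the dye-reversed array (log2 fold change -0.52, adjusted p = 0.131). It thus had pairs 2 and 3 low and pair 1 near 0, as Hmgcs1 and Cyp51 did.

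Of these 15 enzymes, 6 (40%) had the same sign on all 4 arrays, against 21.8% of all named genes. Pmvk, phosphomevalonate kinase, was lower on every array at both of its probes (log2 fold changes -0.46 and -0.52), with -0.26 and -0.31 on the dye-reversed array. Sc5d, a late desaturase, was also lower on every array (log2 fold change -0.30, adjusted p = 0.082). Dhcr7 passed at 0.24 (adjusted p = 0.138) with -0.16 on the dye-reversed array. Mvk, Mvd and Ebp had log2 fold changes of -0.19, 0.08 and 0.00 and did not pass. Hsd17b7 was higher on every array at its brighter probe, with 0.15 on the dye-reversed array, but did not pass (0.24, adjusted p = 0.154). Its other probe was at 0.93 (adjusted p = 0.04) with -0.32 on the dye-reversed array.

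**Figure D4:**
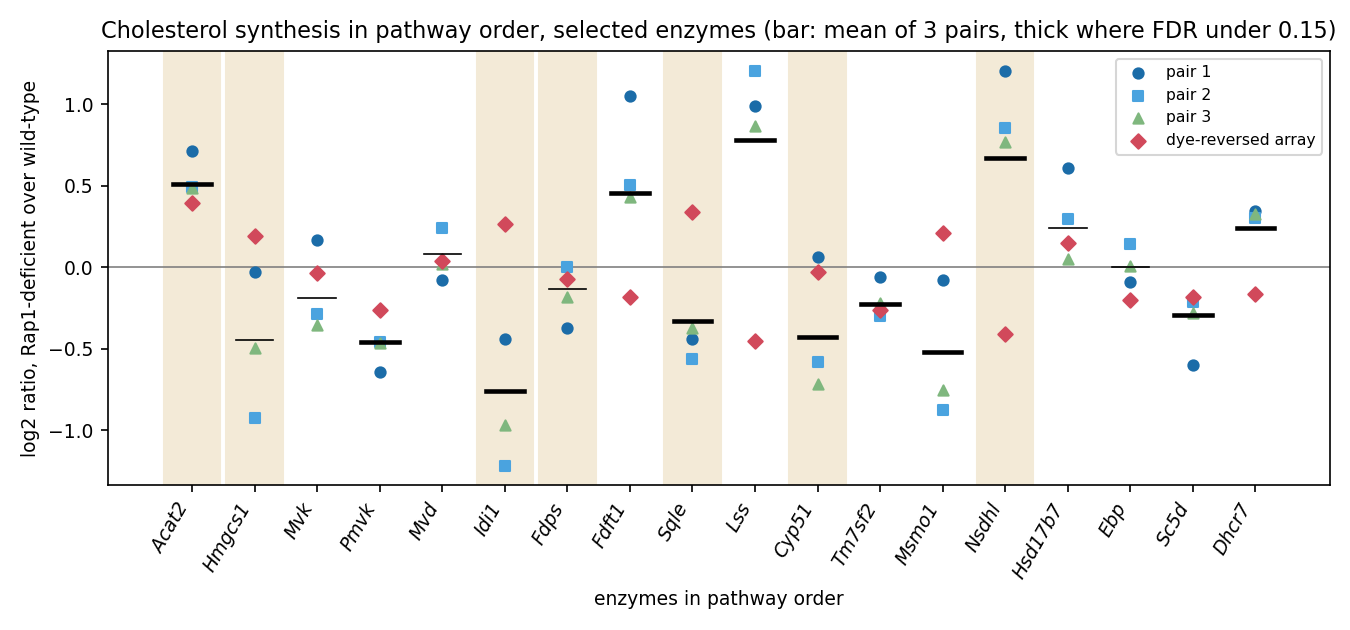
Log2 ratio of Rap1-/- over wild-type liver (y axis) for the 7 genes and other synthesis enzymes in pathway order (x axis), 1 symbol per array, each gene by its probe of highest mean intensity; the bar is the mean of 3 pairs, thick where the adjusted p is under 0.15, and the 7 genes have a shaded ground. By the mean of 3 pairs, some neighbouring enzymes lie on different sides of 0, such as Sqle at -0.33 and Lss at 0.78. On the dye-reversed array the signs of Sqle and Lss are the other way round, at 0.34 and -0.45.

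Among the regulators of SREBP2, 4 of 12 were higher, 2 were lower and 6 did not pass. Insig1, which holds SCAP in the endoplasmic reticulum and is itself an SREBP target, had log2 ratios of 1.46, 2.36 and 1.43 on pairs 1, 2 and 3 and -0.65 on the dye-reversed array (log2 fold change 1.40, adjusted p = 0.063). It was highest on pair 2, where Hmgcs1 and Idi1 were lowest. Scap was lower on all 4 arrays, at -0.59, -0.50, -0.20 and -0.48 (log2 fold change -0.41, adjusted p = 0.063). Srebf2, which encodes SREBP2, had a log2 fold change of 0.04 (adjusted p = 0.761) at its brighter probe and 0.60 (adjusted p = 0.068) at the other, with -0.11 and -0.17 on the dye-reversed array. Insig2 did not pass (0.03, adjusted p = 0.93).

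Of 13 measured genes of uptake and handling, 3 were higher, 2 were lower and 8 did not pass. Mylip, a ubiquitin ligase that limits lipoprotein uptake, was at -0.37 (adjusted p = 0.137), with 0.15 on the dye-reversed array. Stard4, a sterol carrier, Npc1, the lysosomal exporter, and Soat2, which esterifies cholesterol, had log2 fold changes of 0.26, 0.21 and -0.18 and did not pass. Abca1, the exporter of cholesterol to apolipoprotein A-I, was lower on all 4 arrays (log2 fold change -0.52, adjusted p = 0.04), with -0.01 on the dye-reversed array.

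Acat1, the mitochondrial thiolase that matches Acat2 and serves ketone body metabolism, had log2 ratios of 0.14, -0.18 and -0.42 in pairs 1, 2 and 3 and 0.50 with the dyes reversed. Its log2 fold change was -0.09 (adjusted p = 0.695), which did not pass.

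For each gene, the other named gene with the nearest log2 ratios over the 4 arrays was found by root mean square difference. It was Akap1 for Acat2 (0.0349), Eif1a for Hmgcs1 (0.104), Hes1 for Idi1 (0.0754) and Rbfox3 for Fdps (0.0219). It was Rb1 for Sqle (0.0185), Acsl1 for Cyp51 (0.0586) and Tm7sf3 for Nsdhl (0.0381, probe A_66_P137462). None of these 7 was on the pathway list.

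Marker levels of macrophages, stellate cells, cholangiocytes and adipocytes ranged more widely over the 4 arrays in Rap1-/- than in wild-type liver. Those of sinusoidal endothelial cells and hepatocytes did not. A wider Rap1-/- range was general: over the arrays with Rap1-/- in Cy5 it was the larger at 80.4% of tested probes. The level given here for a list is the log2 of its summed intensities, so bright genes weigh most. For 10 hepatocyte markers the level ranged from 19.35 to 19.89 in Rap1-/- and from 19.33 to 19.86 in wild-type liver. Of 10 Kupffer cell and macrophage markers listed, 9 had a mapped probe and 8 were detected. Cd68 and Cd163 were the others, either without a mapped probe or not detected. The level of this list ranged from 14.1 to 15.9 in Rap1-/- and from 14.6 to 14.8 in wild-type liver. The median log2 ratio of the 8 detected was -0.45, 0.18 and 1.36 in pairs 1, 2 and 3 and -0.23 with the dyes reversed. For 8 stellate cell and fibroblast markers the level ranged from 14.4 to 15.1 in Rap1-/- and from 14.4 to 14.5 in wild-type liver. Their median log2 ratios were -0.12, 0.06 and 0.38 in pairs 1, 2 and 3 and 0.16 with the dyes reversed. For 8 sinusoidal endothelial cell markers, all detected, the level ranged from 14.03 to 14.20 in Rap1-/- and from 13.84 to 14.15 in wild-type liver. For 5 cholangiocyte markers, of which Krt7 and Epcam were not detected, it ranged from 9.84 to 10.29 in Rap1-/- and from 9.70 to 9.94 in wild-type liver. Of 5 adipocyte markers, Adipoq, Plin1 and Lep were not detected. The level of the 5 ranged from 8.51 to 10.5 in Rap1-/- and from 8.64 to 8.87 in wild-type liver. The 2 adipocyte markers tested, Cfd and Retn, were each well above background on all arrays in only 1 genotype. Their median log2 ratios were 1.80, 0.25 and -0.53 in pairs 1, 2 and 3 and 1.82 with the dyes reversed. Only 1 of the 2 had the same sign on all 4 arrays, and 1 gene can set a median of 2. The adipocyte median was thus high on both arrays counted as pair 1 and lower in pairs 2 and 3. In pairs 2 and 3 Hmgcs1, Cyp51, Msmo1 and the Nsdhl probe A_55_P1976395 were low. The part of these cells in the results for the 7 genes was not tested.

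The calls for the 7 genes changed with the processing, and each count is given beside the share of all probes that passed under the same choice. All 8 member probes passed with the value table of the authors (background 36.4%), and 7 passed without the dye-reversed array (52.7%) and without pair 1 (45.8%). Without background correction 5 passed (36.7%), as with outlier spots kept (34.5%). With processed signals 4 passed (35.6%), as without the filter on dim probes (16.5%) and with the dye-reversed array averaged with pair 2 (29.3%) or pair 3 (34.4%). By median centring 3 passed (23.5%), without pair 3, 2 passed (9.94%), and without pair 2 none passed (0.0254%), with an unadjusted p under 0.05 in limma at 2. With the dye-reversed array as a further replicate none passed (0.302%), with an unadjusted p under 0.05 in limma at 1. The Acat2 probe passed in 13 of 15 settings, with log2 fold changes between 0.46 and 0.67. The Nsdhl probe A_66_P137462 passed in 12, Idi1 in 11, Sqle in 9 and Cyp51 in 7. Hmgcs1 and the other Nsdhl probe passed in 3 and Fdps in 1. Idi1, Sqle, Cyp51, Hmgcs1 and Nsdhl probe A_55_P1976395 stayed below 0 in all 15 settings. Every setting included arrays with Rap1-/- in Cy5, so this constant sign says little about the dye. On the dye-reversed array itself, Idi1, Sqle, Hmgcs1 and this Nsdhl probe were above 0.

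**Figure D5:**
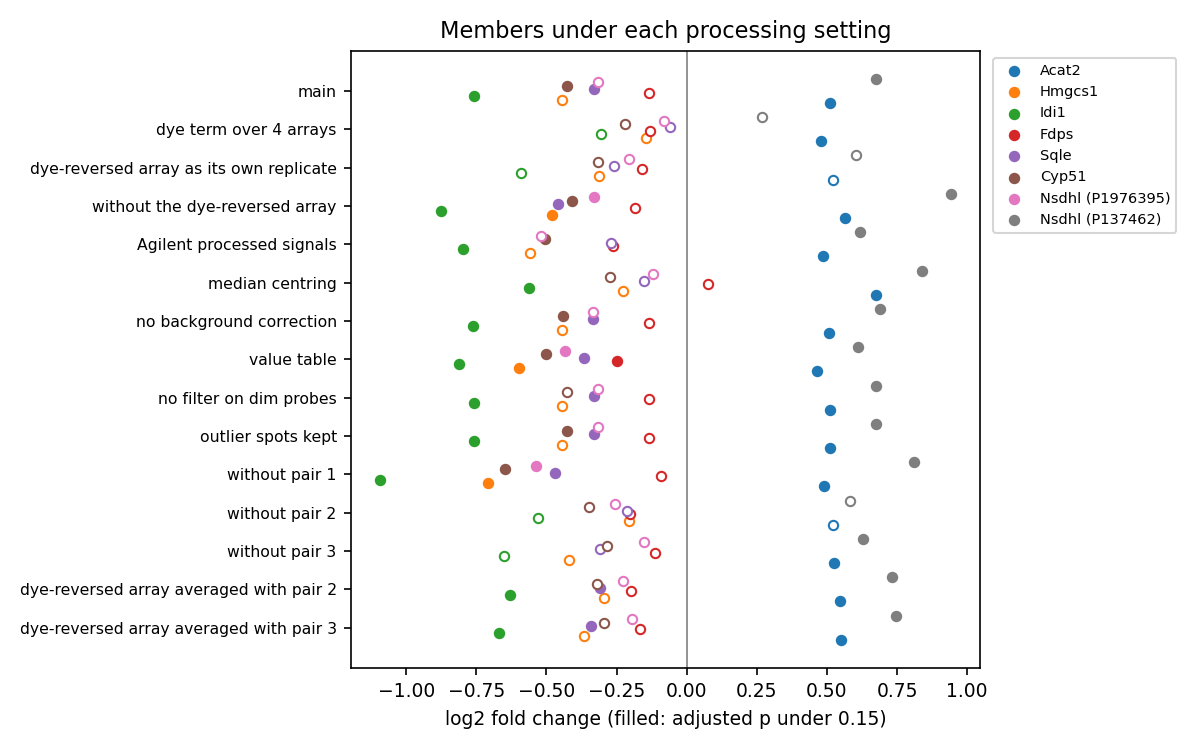
Log2 fold change of each of the 8 probes (x axis, 1 colour per probe) under each of 15 processing settings (y axis), filled where the adjusted p is under 0.15. The Acat2 points lie between 0.46 and 0.67, and those of Idi1 between -1.09 and -0.31.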

How the data were processed

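Members, gene lists and markers were chosen with earlier results of these data known. The authors deposited spot intensities of each 2-colour scan (Agilent Feature Extraction 10.7.3.1 per the file headers, where the study's methods name another version), as median and local background intensities and as processed intensities. The deposited scans also hold log10 ratios of Cy5 over Cy3, used to read the direction of the value table of log2 ratios that the authors deposited and their processing notes credit to limma. All 4 scans carry the same slide and scan time, so no batch could be separated.

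Background was removed from the median intensities (mean intensities were not used here) by normexp, offset 50, followed by within-array loess, in limma 3.58.1 under R 4.3.3, with control spots at weight 0. Spots with outlier flags were left out, which removed 5 probes, and spots of a probe were averaged. Channel values were taken after Aquantile scaling. Probes entered the test if, in either genotype, a share of 0.5 or more of their spots was flagged well above background on all 4 arrays, which kept 27513 of 55681 probes (49.4%); between 50.1% and 56.4% of spots per channel were well above background with no spot saturated, and precision is limited by how few arrays there are. The log2 ratios of 3 pairs were tested against 0 with lmFit and eBayes with Benjamini-Hochberg adjustment across the 27513 probes, at the study's threshold of 0.15. Accessions were matched to gene names in a RefSeq table of GRCm38.p6 (26056 of 55681 probes), and a gene in a list is represented by its probe of highest mean intensity. All probes of the members, a list of pathway genes whatever their value (some listed genes enter the counts but are not reported here by name), and the nearest gene to each member were named. RNA integrity numbers were 6.6 to 8.7 over all samples in the labels. The fit was tested on simulated data. Alternatives were a dye term, the dye-reversed array as a further replicate or left out, processed intensities, median centring, no background correction, the value table, no filter, outlier spots kept, each pair left out, and, chosen after seeing the data, the dye-reversed array averaged with pair 2 or 3.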

Additional observations from a re-analysis of the deposited data

Results flagged for a closer look

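For 4 member probes the dye-reversed array lay on the other side of 0 from all 3 arrays with Rap1-/- liver in Cy5, and this difference between dye orientations was not tested for single probes. The log2 ratio on the dye-reversed array was 0.19 for Hmgcs1, 0.26 for Idi1 and 0.34 for Sqle, each below 0 on the other arrays. It was -0.41 for the Nsdhl probe A_66_P137462, which was above 0 on the others. Of all tested probes, 43.9% had such a change of sign.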

How the results depend on the processing

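With 3 pairs, the wild-type spread possibly missing and 1 dye-reversed array, calls depend on how that array enters. In the fit with the dye term that array adds no spread to the SE. The count of all tested probes that passed was 9488 (60.3% higher), of member probes 5 and of pathway genes 23. With the dye term these were 1844, 1 and 6, and when the dye-reversed array counted as a further replicate 83, 0 and 0 (unadjusted p under 0.05 at 1 member probe and 13 pathway genes). Without the dye-reversed array 14496 probes passed, median centring gave 3 member probes and 15 pathway genes, and all 8 member probes passed with the value table. The share of called probes that were higher was 49.3% with processed signals, 87.7% by median centring, which raises the median of all probes to 0.17, and 45.3% by the value table. Leaving out each pair gave 7 to 12596 probes, 0 to 7 member probes and 0 to 33 pathway genes, the lowest without pair 2 and the highest without pair 1, which leaves only arrays with Rap1-/- in Cy5.

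Log2 fold changes that no longer passed were 0.52 for Acat2, -0.59 for Idi1, -0.26 for Sqle, -0.31 for Cyp51 and 0.60 for Nsdhl A_66_P137462 when the dye-reversed array counted as a further replicate. With the dye term they were -0.31 for Idi1, -0.061 for Sqle, -0.22 for Cyp51 and 0.27 for Nsdhl A_66_P137462. Sqle was -0.27 with processed signals and -0.15 by median centring, and Cyp51 was -0.27 by median centring, -0.43 without the filter (adjusted p = 0.158) and -0.32 and -0.30 with the dye-reversed array averaged with pairs 2 and 3. Hmgcs1 passed at -0.48 and Nsdhl A_55_P1976395 at -0.33 without the dye-reversed array, and at -0.60 and -0.43 by the value table, where Fdps passed at -0.25. Fdps reversed to 0.076 by median centring (-0.096 relative to the median of all probes). Leaving out a pair gave 0.49 to 0.52 for Acat2, -0.71 to -0.20 for Hmgcs1, -1.09 to -0.53 for Idi1, -0.20 to -0.091 for Fdps, -0.47 to -0.21 for Sqle, -0.65 to -0.28 for Cyp51, -0.54 to -0.15 for Nsdhl A_55_P1976395 and 0.58 to 0.81 for Nsdhl A_66_P137462. Causes were not tested.

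Other reversals, none of a called gene, were Mvd at -0.013 (processed signals), Ebp at -0.092, -0.036, -0.13, -0.14, -0.038 and -0.015 (dye term, further replicate, processed signals, value table, swap with pair 2, swap with pair 3), Srebf2 at -0.10, -0.0052 and -0.075 (processed signals, no background correction, value table), Insig2 at -0.027 (value table), Npc1 at -0.014 (dye term) and Acat1 at 0.17, 0.0096 and 0.068 (dye term, further replicate, median centring). Leaving out each pair gave -0.070 to 0.073 for Ebp, -0.30 to 0.23 for Insig2 and -0.30 to 0.070 for Acat1. The test is itself over pairs within an array, and no further replicate block was fitted because the groups of arrays share only 1 replicate number.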
